A study of Mus musculus with 16 samples.

Results

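The pan-leukocyte genes are 10 mouse genes of white blood cells, most of them transcribed across lineages and some, such as Tyrobp and Fcer1g, chiefly in myeloid and natural killer cells: Ptprc, Cd53, Laptm5, Cd52, Tyrobp, Fcer1g, Itgb2, Coro1a, Lcp1 and Rac2. They were chosen by gene name, and all 10 were found among the 54532 genes of each deposited table. Their products sit at the surface, in the signalling layer just beneath it and in the actin skeleton of blood cells. The phosphatase CD45 switches on Src-family kinases, which phosphorylate short tyrosine motifs (ITAMs) on adaptors such as Tyrobp and Fcer1g. Integrins with the β2 chain then bind endothelium and other cells, and Rac2 and its actin-binding partners drive movement and the oxidative burst. In a pancreatic tumour the cells that carry this machinery are chiefly macrophages, neutrophils and lymphocytes, so its mRNA is commonly read as a measure of leukocyte RNA in a sample.

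The study concerns Ly6d, a small surface protein of the Ly6 family, in pancreatic cancer. KPC1199, a mouse pancreatic cancer line, was implanted into the pancreas, cells were sorted from the tumours, and their TRIzol-extracted RNA was sequenced. As far as the column names tell, the groups used here are sorted cells overexpressing Ly6d, sorted Ly6d WT cells, and sorted cells with high or with low Ly6d, with 2 libraries each. All carry the KPC1199 background. The labels name a single line and do not give the host strain, its age, the marker used for sorting or the promoter of the Ly6d construct. The labels also list 4 overexpression and 4 WT tumour tissues; no column was assigned to them.

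Overexpression and WT libraries held 18290325, 18001470, 18108850 and 15449241 counts, and Ly6d-high and Ly6d-low libraries held 15063975 to 20509539 reads recovered from the deposited TPM. Overexpression columns bear a library name that the labels give to overexpression tumour tissue, and the names of the WT columns also occur within the titles of WT tissue libraries, so the reading of these columns as sorted cells is an inference from names. In CPM, the count scaled to a common library total, Ly6d was at 3379.5 and 3423 in the overexpression libraries, against 1260 and 1066 in the WT libraries. Keratins and other tumour epithelial genes were abundant in every library, with a list of 10 summing to 13311 and 13965 CPM in overexpression and 12974 and 12599 CPM in WT cells. Marker lists of other pancreatic cell types were also detected, and the source of that RNA was not tested. A list of 12 acinar enzyme genes summed to 1517 and 1674 CPM in overexpression libraries, against 20628 and 21189 CPM in WT libraries, and to 14125 and 12479 TPM in Ly6d-high libraries, against 5732 and 5729 TPM in Ly6d-low libraries. Fibroblast and mural genes, a list of 10, summed to 6272 and 6238 CPM in overexpression and 5288 and 5873 CPM in WT libraries.

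Promoter sequences around the RefSeq start sites were given for 6 of the 10 genes (GRCm38.p6, 250 bases before to 50 after the start). Those that hold the letters GAGGAA on either strand, the core bound by Spi1 (PU.1) and related ETS factors of blood cells, are shown. They were picked by these letters only, and a role of the letters in expression was not tested. Capitals mark GAGGAA, its reverse complement TTCCTC, and TGTGGT, the core bound by RUNX factors.
Cd53, chr3:106790100-106790399, minus strand: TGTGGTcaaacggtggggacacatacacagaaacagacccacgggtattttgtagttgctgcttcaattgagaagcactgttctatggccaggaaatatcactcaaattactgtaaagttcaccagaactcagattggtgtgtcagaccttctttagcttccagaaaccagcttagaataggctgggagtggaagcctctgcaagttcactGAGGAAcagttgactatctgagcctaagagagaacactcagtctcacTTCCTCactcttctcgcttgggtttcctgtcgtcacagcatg
Laptm5, chr4:130913066-130913365, plus strand: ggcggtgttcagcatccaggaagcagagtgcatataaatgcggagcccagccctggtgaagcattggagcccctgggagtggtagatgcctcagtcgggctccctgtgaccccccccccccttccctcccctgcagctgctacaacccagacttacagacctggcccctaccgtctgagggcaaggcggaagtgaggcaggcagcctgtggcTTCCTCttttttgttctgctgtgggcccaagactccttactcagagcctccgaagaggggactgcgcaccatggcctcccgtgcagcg
Ptprc, chr1:138175256-138175555, minus strand: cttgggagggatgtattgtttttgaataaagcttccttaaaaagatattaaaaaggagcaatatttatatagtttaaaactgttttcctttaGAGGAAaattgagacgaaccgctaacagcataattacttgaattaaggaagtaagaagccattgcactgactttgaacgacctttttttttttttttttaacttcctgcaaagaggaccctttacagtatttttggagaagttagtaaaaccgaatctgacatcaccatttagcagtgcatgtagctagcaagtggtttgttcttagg
Cd53 held GAGGAA at position -39 from the start site and again, on the opposite strand, at position 9, with TGTGGT at the far end of the window. Laptm5 held it on the opposite strand at position -38, next to the position in Cd53, and Ptprc held it at position -158 in the window of its upstream start. Fcer1g held TGTGGT at position 10 and no GAGGAA, and the windows of Coro1a and Lcp1 held neither string. Of the 9 member windows, some genes having 2 starts, 3 held GAGGAA, against 28.3% of all 32851 mouse promoter windows of 300 bases, and 2 held TGTGGT, against 16.8% of all windows. Cd52, Tyrobp, Rac2 and Itgb2 had no entry. The match is counted on both strands and describes letters in these windows only.

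Overexpression libraries held more mRNA of all 10 pan-leukocyte genes than WT libraries. Summed over the 10 genes, the level was 105.4 and 105.2 CPM in overexpression libraries, against 28.6 and 22.9 CPM in WT libraries, a 4.09-fold difference in means. Each gene was higher in both overexpression libraries than in either WT library, and each passed the test (10 higher, 0 lower; edgeR quasi-likelihood test, Benjamini-Hochberg adjusted over 15771 genes). Of all genes tested, 2.32% were called higher, 1.84% lower, and 26.3% had both overexpression libraries above both WT libraries. Log2 fold changes of the members lay between 1.54 and 2.85 with a median of 2.28, while the median over all genes was -0.00119. In bulk RNA, fewer cells of a type and less RNA per cell cannot be told apart. All 10 were counted in every library, the lowest being Tyrobp with 12 counts in a WT library.

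**Figure D1:**
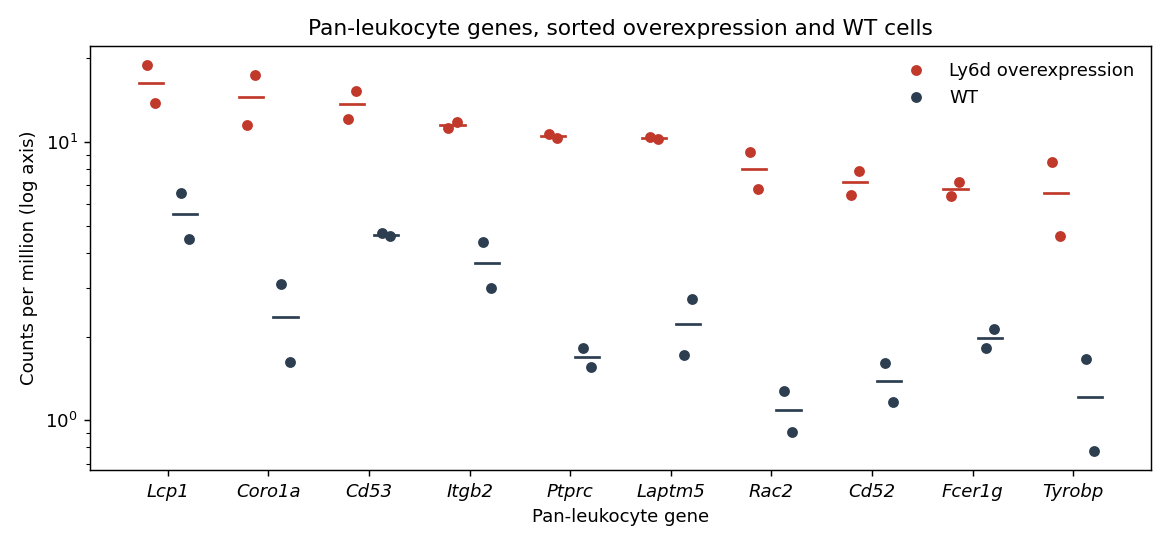
CPM, on a log axis, of the 10 pan-leukocyte genes in the 2 overexpression (left, red) and 2 WT (right, dark) libraries, points being libraries and bars their means. No WT library reaches an overexpression library for any gene, from Lcp1 (18.9 and 13.8 against 6.57 and 4.47 CPM) to Tyrobp (8.47 and 4.61 against 1.66 and 0.777 CPM).

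The membrane proteins all rose. Ptprc (ENSMUSG00000026395, GRCm38 chr1:138062861-138175708, minus strand) encodes CD45, the receptor tyrosine phosphatase that defines leukocytes. It was at 10.7 and 10.3 CPM in overexpression libraries, against 1.82 and 1.55 CPM in WT libraries. The libraries of a group lay close together, and the difference was 6.22-fold (log2 fold change 2.61 ± 0.30 SE, edgeR adjusted p = 0.000401). Laptm5 (ENSMUSG00000028581, chr4:130913125-130936141, plus strand), a lysosomal membrane protein that limits antigen receptor levels in lymphocytes, was at 10.4 and 10.2 CPM in overexpression libraries, against 1.71 and 2.72 CPM in WT libraries. Its spread lay in the WT libraries, and it rose by 2.21 ± 0.32 on the log2 scale (edgeR adjusted p = 0.00223). Cd52 (ENSMUSG00000000682, chr4:134082448-134095082, minus strand), a very short peptide on a lipid anchor that coats lymphocytes and monocytes, was at 6.45 and 7.89 CPM in overexpression libraries, against 1.601 and 1.17 CPM in WT libraries. The change was 2.34 ± 0.37 on the log2 scale (edgeR adjusted p = 0.00457).

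Cd53 (ENSMUSG00000040747, chr3:106759921-106790149, minus strand), a tetraspanin that organises receptors in the leukocyte membrane, had one of the smaller changes. It was at 12.1 and 15.3 CPM in overexpression libraries, against 4.69 and 4.596 CPM in WT libraries, which is 2.95-fold (log2 fold change 1.54 ± 0.24 SE, edgeR adjusted p = 0.00342). The WT pair lay closer together than the overexpression pair, and a wide gap separated them.

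Both ITAM adaptors rose, and Tyrobp had the widest error of the members. Tyrobp (ENSMUSG00000030579, chr7:30413760-30417585, plus strand), also called DAP12, carries the signal of activating receptors on natural killer and myeloid cells. It was at 8.47 and 4.61 CPM in overexpression libraries, against 1.66 and 0.777 CPM in WT libraries. Libraries of each group differed from one another by more than for any other member in relative terms, and the log2 fold change was 2.39 ± 0.47 (edgeR adjusted p = 0.0161). Fcer1g (ENSMUSG00000058715, chr1:171229572-171234365, minus strand), the common γ chain of Fc receptors, was at 6.40 and 7.17 CPM in overexpression libraries, against 1.82 and 2.14 CPM in WT libraries. Its log2 fold change was 1.76 ± 0.35 (edgeR adjusted p = 0.0157), and the call was lost without WT replicate 1 (adjusted p = 0.0803).

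Itgb2 (ENSMUSG00000000290, chr10:77530252-77565708, plus strand), the shared β2 chain of the leukocyte integrins, was at 11.2 and 11.8 CPM in overexpression libraries, against 4.36 and 2.98 CPM in WT libraries. The overexpression values were the tighter pair, and the change was 1.62 ± 0.27 on the log2 scale (edgeR adjusted p = 0.00572).

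Cytoskeletal members held both the largest and the smallest change. Rac2 (ENSMUSG00000033220, chr15:78559167-78572783, minus strand), the blood-cell small GTPase that activates the NADPH oxidase, was at 9.24 and 6.78 CPM in overexpression libraries, against 1.27 and 0.906 CPM in WT libraries. At 7.36-fold it had the highest ratio of the 10 (log2 fold change 2.85 ± 0.38 SE, edgeR adjusted p = 0.00144). Coro1a (ENSMUSG00000030707, chr7:126699773-126707787, minus strand), coronin 1A, which remodels actin in lymphocytes and phagocytes, was at 11.5 and 17.4 CPM in overexpression libraries, against 3.09 and 1.62 CPM in WT libraries. Its libraries were spread in both groups, yet the groups stayed apart (2.58 ± 0.33 on the log2 scale, edgeR adjusted p = 0.000979). Lcp1 (ENSMUSG00000021998, chr14:75131101-75230842, plus strand), the actin bundler L-plastin, which carcinoma cells can also make, was at 18.9 and 13.8 CPM in overexpression libraries, against 6.57 and 4.47 CPM in WT libraries. The groups did not overlap, and the fitted change, 1.54 ± 0.25 on the log2 scale, matched that of Cd53 as the smallest of the 10 (edgeR adjusted p = 0.00525).

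Reads of overlapping genes could reach 4 of the members, since the labels do not state whether counting used strand. Coro1a overlaps the end of Bola2 by 26 bases on the opposite strand, and Bola2 had 642 and 683 counts in overexpression libraries, against 789 and 546 counts in WT libraries. Most of Cd52's span, 10057 bases, lies over Crybg2 on the opposite strand, which had 20 and 41 counts in overexpression libraries, against 22 and 28 counts in WT libraries. In Ly6d-high libraries Crybg2 had 28 and 47 reads, against 16 and 31 in Ly6d-low libraries, where Cd52 had 47 and 7 against 6 and 11. Bola2 had 187 and 127 reads against 111 and 167 there, and Coro1a 66 and 25 against 16 and 37. Sharing of reads was not tested. Other overlaps, of Ptprc and Lcp1, are with noncoding or unclassified genes that had at most 1 count in any library.

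Relatives of the members that most cells use were read beside them. Of 20 such genes tested, 0 passed in either direction by edgeR or by DESeq2 (unadjusted p under 0.05 in 4 by edgeR and 3 by DESeq2), with edgeR log2 fold changes from -0.18 to 0.22 and a median of 0.09. Rac1, the ubiquitous Rac GTPase, was at 350.0 and 335.5 CPM in overexpression libraries, against 314.3 and 379.9 CPM in WT libraries, overlapping groups with a log2 fold change of -0.04 ± 0.09 (edgeR adjusted p = 0.884). Pls3, the plastin of epithelial and mesenchymal cells, was at 175.5 and 165.2 CPM in overexpression libraries, against 158.7 and 166.0 CPM in WT libraries (log2 fold change 0.05 ± 0.07, edgeR adjusted p = 0.784). Per gene length, Rac2 reached 0.0383 and 0.0293 of the level of Rac1 in overexpression libraries, against 0.00586 and 0.00346 in WT libraries. On the same scale Lcp1 reached 0.0479 and 0.0372 of the level of Pls3 in overexpression libraries, against 0.0185 and 0.0120 in WT libraries. The blood-cell form was thus the minor form in every library.

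**Figure D2:**
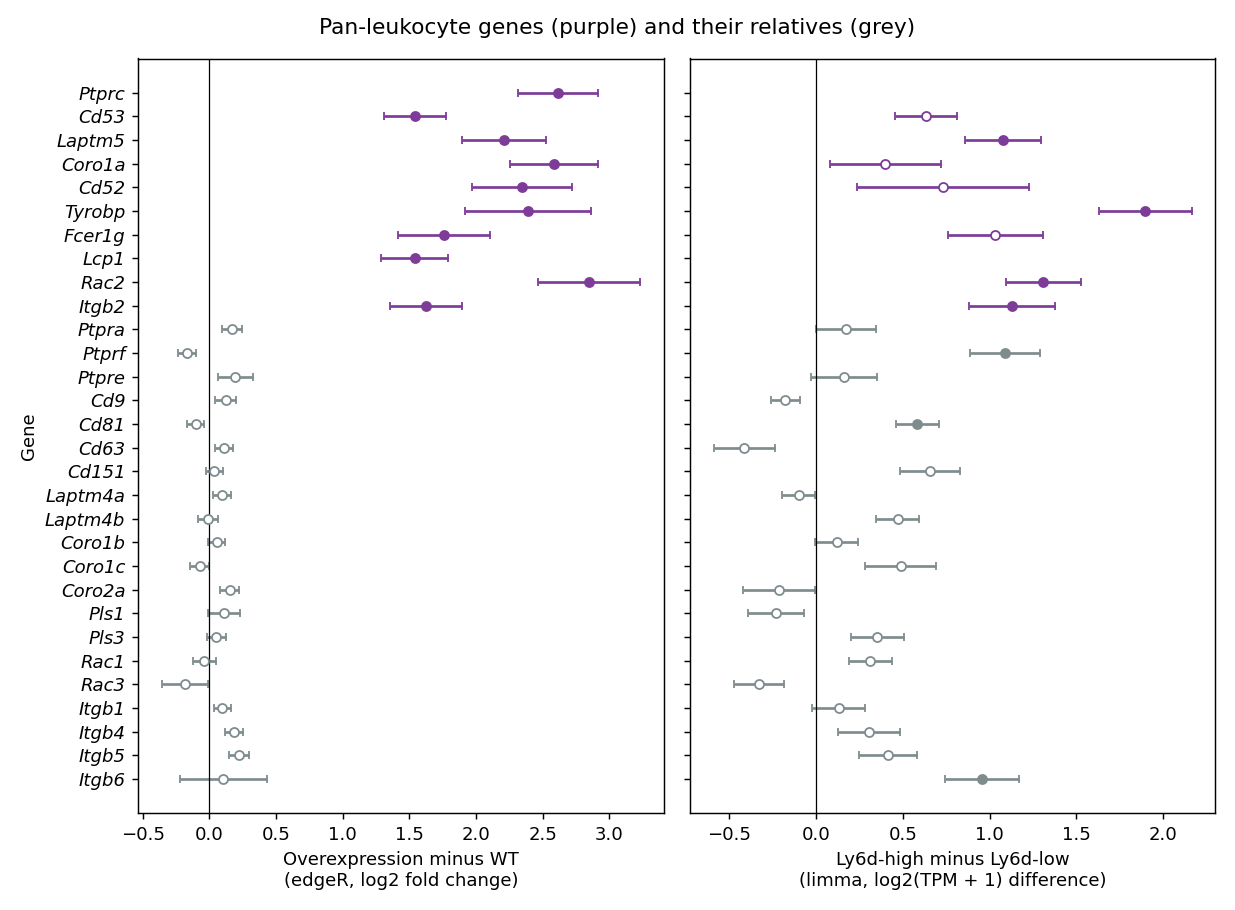
Log2 differences with standard errors of the 10 members (purple) and 20 relatives (grey), overexpression minus WT on the left and Ly6d-high minus Ly6d-low on the right, with filled points past an adjusted p of 0.05. On the left every member lies at or above 1.54 and every relative at or below 0.22. On the right the scale is log2(TPM + 1), Ptprc and Lcp1 did not pass the filter, and members lie between 0.40 and 1.90.

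Other genes of the same machinery were read from lists. Of 30 further pan-leukocyte genes, 27 were tested, 8 were higher and 0 lower in overexpression libraries, with a median log2 fold change of 1.74. Plek, a substrate of protein kinase C in platelets and leukocytes, was at 18.4 and 20.9 CPM in overexpression libraries, against 4.97 and 3.37 CPM in WT libraries (log2 fold change 2.21, edgeR adjusted p = 0.000183). Selplg, the ligand of P-selectin, and Ikzf1, a transcription factor of lymphoid cells, were also higher. Ikzf1 was at 3.01 and 2.94 CPM in overexpression libraries, against 0.276 and 0.194 CPM in WT libraries (log2 fold change 3.59, edgeR adjusted p = 0.0135). Selplg and Ikzf1 passed the count filter only through the overexpression libraries, so their calls are not independent of it. Evi2b had no reads in any of the 8 libraries.

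Receptors that use the adaptors were counted next. Among 25 receptors that pair with Tyrobp or Fcer1g, 14 were tested, 7 were higher and 0 lower, with a median log2 fold change of 2.58. Clec4d and Clec4n, among these calls, passed the count filter only through the overexpression libraries, so their calls are not independent of it. The calls included Clec4e, a C-type lectin that senses microbial glycolipid and dead cells, at 7.38 and 5.94 CPM in overexpression libraries, against 1.21 and 1.10 CPM in WT libraries (edgeR adjusted p = 0.00386). Fcgr3, an IgG receptor that needs the Fcer1g chain, was at 5.74 and 7.50 CPM in overexpression libraries, against 1.66 and 1.55 CPM in WT libraries (edgeR adjusted p = 0.0105). Fcer1a, Oscar and Gp6 had no reads in the libraries of either group. Of 15 downstream kinases and adaptors tested, 1 was higher, Syk, the kinase that docks on phosphorylated ITAMs, at 21.3 and 15.9 CPM in overexpression libraries, against 9.72 and 10.1 CPM in WT libraries (edgeR adjusted p = 0.0290). The median of that list was 0.29.

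Among partners of Itgb2, the α chains Itgax and Itgal rose and account for both calls among 12 tested genes of the β2 integrin list. Itgax (CD11c) was at 4.81 and 3.61 CPM in overexpression libraries, against 0.166 and 0.194 CPM in WT libraries (log2 fold change 4.48, edgeR adjusted p = 0.00210). Itgax passed the count filter only through the overexpression libraries, so its call is not independent of it. Itgal (CD11a) was at 4.92 and 7.33 CPM in overexpression libraries, against 0.773 and 0.712 CPM in WT libraries (log2 fold change 3.01, edgeR adjusted p = 0.00299). For Itgam (CD11b) the values were 4.43 and 5.06 CPM in overexpression libraries, against 1.82 and 0.647 CPM in WT libraries, and it did not pass (edgeR adjusted p = 0.0671). In the list of blood-cell actin regulators and the NADPH oxidase, 6 of 16 were higher and 0 lower, with a median of 0.74. Cybb, the catalytic subunit of the oxidase, was at 15.3 and 13.5 CPM in overexpression libraries, against 4.58 and 4.66 CPM in WT libraries (edgeR adjusted p = 0.00169).

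Markers of some blood lineages, not of all, rose beside the pan-leukocyte genes. Of 16 macrophage markers, 7 were higher and 0 lower, and their summed level was 256 and 268 CPM in overexpression libraries, against 90.4 and 92.7 CPM in WT libraries, with no marker at 0 across a whole group. Of 13 neutrophil markers tested from a list of 16, 8 were higher and 1, Lcn2, was lower. Ngp, Camp and Mmp8, among the higher ones, passed the count filter only through the overexpression libraries. Their calls are not independent of it. S100a9, a subunit of calprotectin, was at 33.8 and 38.8 CPM in overexpression libraries, against 0.773 and 0.647 CPM in WT libraries (edgeR adjusted p = 2.95e-08). The sum of that list, 273 and 276 CPM in overexpression libraries against 182 and 173 CPM in WT libraries, includes Lcn2, which epithelia also make. Elane was at 0 in overexpression libraries, and Mmp8 and Stfa2l1 were at 0 in WT libraries. Of 7 B and plasma cell markers tested from 12, 2 were higher, Jchain and Mzb1, and Pax5 was at 0 in both groups, as were Ms4a1 and Tnfrsf17 in WT libraries. For T cells, 5 of 15 markers were tested and 0 passed (edgeR, with unadjusted p under 0.05 in 2 and a median log2 fold change of 1.12; DESeq2 also called 0), at summed levels of 11.4 and 13.0 CPM in overexpression libraries, against 4.80 and 4.98 CPM in WT libraries. Cd2 was at 0 in overexpression and Cd3e in WT libraries. Natural killer (2 tested), dendritic (7 tested) and mast cell or basophil (5 tested) markers gave 0 calls by edgeR and by DESeq2, with unadjusted p under 0.05 in 1, 0 and 4 by edgeR. Of those 4, Hdc was higher (log2 fold change 0.94), while Gata2 (-1.78), Kit (-1.38) and Mcpt8 (-0.51) were lower. Median log2 fold changes were 0.01 for dendritic and -0.51 for mast cell or basophil markers. Of 7 erythroid and platelet markers 1 was higher, Hbb-bs. All 12 acinar genes and 5 of 10 endothelial genes were lower, and among 10 fibroblast and mural genes Col1a2 and Pdgfrb were higher and Rgs5 lower. Of the 10 tumour epithelial genes only Cldn4 was called by edgeR, as lower. The part of each cell type in the pan-leukocyte difference was not tested.

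Ly6d-high cells held more mRNA of part of the pan-leukocyte genes than Ly6d-low cells. Summed over the 10 genes, the level was 49.2 and 45.6 TPM in Ly6d-high libraries, against 20.9 and 21.1 TPM in Ly6d-low libraries, a 2.26-fold difference in means. Of the 10 genes, 8 passed the filter of 1 TPM in at least 2 of 4 libraries, and Tyrobp, Rac2, Laptm5 and Itgb2 were called, all 4 higher (limma with trend, scale log2(TPM + 1), adjusted over 14625 genes). Of all genes tested, 8.64% were called higher and 1.17% lower, and 54.4% had both Ly6d-high libraries above both Ly6d-low libraries. Groups did not overlap in 6 of the 8 tested members, the others being Cd52 and Coro1a. The 4 called genes passed the filter only through the Ly6d-high libraries, so their calls are not independent of it, and with no filter 0 of the 10 were called by limma (adjusted p from 0.0653 to 0.583, unadjusted p under 0.05 in 7). On reads recovered from the TPM, edgeR tested all 10 and called 5 higher, these 4 and Lcp1, where 8.01% of all genes were called higher. DESeq2 on the same reads called 2, Rac2 and Lcp1. The calls also rested on scaling: with TMM factors on TPM, which lower the median over all genes to 0.01 from 0.25 with TPM as deposited, only Tyrobp and Rac2 were called and the 8 differences lay between 0.24 and 1.74. Without Ly6d-high replicate 2 only Tyrobp was called.

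**Figure D3:**
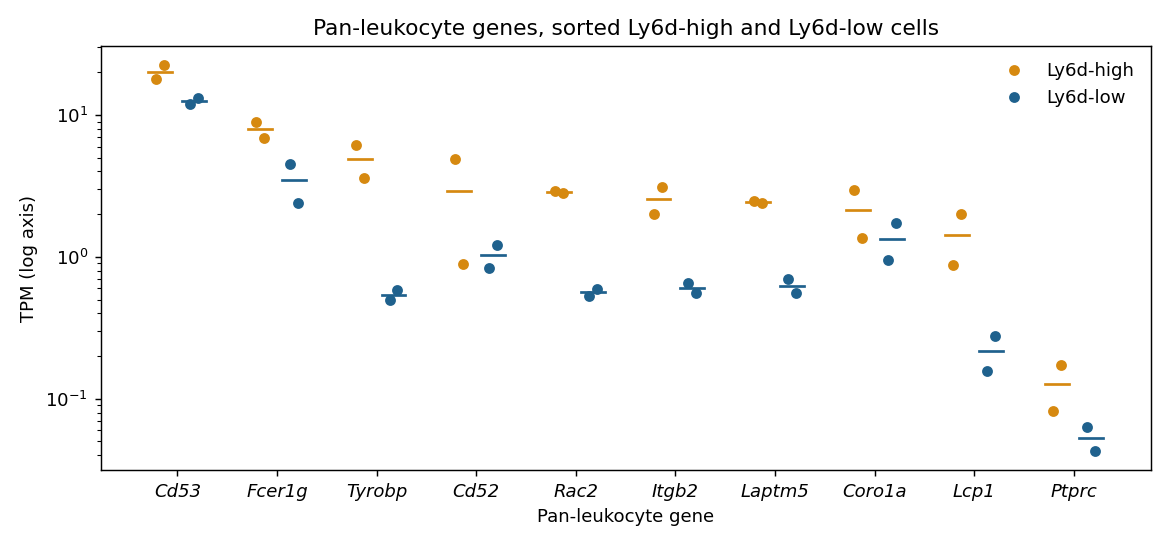
TPM on a log axis of the 10 pan-leukocyte genes in 2 Ly6d-high (left, orange) and 2 Ly6d-low (right, blue) libraries, points being libraries and bars their means. Cd53 stands highest in both groups, at 17.8 and 22.4 against 11.97 and 13.1 TPM, and the groups overlap for Cd52 and Coro1a.

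Tyrobp differed most, at 6.17 and 3.61 TPM in Ly6d-high libraries, against 0.496 and 0.589 TPM in Ly6d-low libraries. These values rest on 33 and 16 reads in Ly6d-high and on 2 and 3 reads in Ly6d-low libraries, and the ratio of reads over library totals was 8.67 (95% exact interval 3.47 to 27.9, counting error only). On the log2(TPM + 1) scale it differed by 1.90 ± 0.27 SE (adjusted p = 0.00569 by limma). Rac2 was at 2.93 and 2.81 TPM in Ly6d-high libraries, against 0.533 and 0.590 TPM in Ly6d-low libraries, from 73, 58, 10 and 14 reads. Both pairs were tight, and the difference was 1.31 ± 0.21 (limma adjusted p = 0.0111). For Laptm5 the values were 2.47 and 2.38 TPM in Ly6d-high libraries, against 0.699 and 0.553 TPM in Ly6d-low libraries (1.08 ± 0.22, limma adjusted p = 0.0260). Itgb2 was at 2.002 and 3.10 TPM in Ly6d-high libraries, against 0.651 and 0.557 TPM in Ly6d-low libraries (1.13 ± 0.25, limma adjusted p = 0.0342). Laptm5 and Itgb2 were each called in 4 of 10 alternatives, with adjusted p of up to 0.128 for Laptm5 and 0.130 for Itgb2. Without Ly6d-low replicate 1 and without Ly6d-low replicate 2 neither was called.

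For the other members the difference did not pass. Fcer1g was at 8.99 and 6.88 TPM in Ly6d-high libraries, against 4.54 and 2.40 TPM in Ly6d-low libraries (1.03 ± 0.27, limma adjusted p = 0.0596). The groups stayed apart, with 63 and 40 reads against 24 and 16, and with a library left out the difference ranged from 0.68 to 1.39. Only the replicate block called Fcer1g among the alternatives that kept all libraries. On recovered reads it did not pass (adjusted p = 0.197 by edgeR and 0.489 by DESeq2). Cd53 was at 17.8 and 22.4 TPM in Ly6d-high libraries, against 11.97 and 13.1 TPM in Ly6d-low libraries (0.63 ± 0.18, limma adjusted p = 0.0676). With a library left out, the Cd53 difference ranged from 0.47 to 0.79. Of the alternatives that kept all libraries, only the replicate block called it. On recovered reads edgeR and DESeq2 did not (adjusted p = 0.145 by edgeR and 0.539 by DESeq2). Cd52 had a single high library, at 4.94 and 0.887 TPM in Ly6d-high, against 0.837 and 1.21 TPM in Ly6d-low libraries (0.73 ± 0.49, limma adjusted p = 0.341), and without the high library the difference was -0.10. Coro1a was at 2.96 and 1.35 TPM in Ly6d-high libraries, against 0.951 and 1.74 TPM in Ly6d-low libraries, overlapping groups (0.40 ± 0.32, limma adjusted p = 0.414).

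Ptprc and Lcp1 did not pass the filter of 1 TPM, and with no filter neither was called by limma (adjusted p = 0.583 for Ptprc and 0.186 for Lcp1). Ptprc was the lowest member of all, at 0.0817 and 0.172 TPM in Ly6d-high libraries, against 0.0633 and 0.0429 TPM in Ly6d-low libraries, from 12 and 21 reads against 7 and 6. By edgeR on recovered reads its log2 fold change was 0.94 ± 0.58 (adjusted p = 0.318). Lcp1 was at 0.879 and 1.99 TPM in Ly6d-high libraries, against 0.157 and 0.275 TPM in Ly6d-low libraries, from 67 and 126 reads against 9 and 20. Its groups did not overlap, and by the same test its log2 fold change was 2.36 ± 0.45 (adjusted p = 0.0186).

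The order of the 10 genes by level per gene length differed between the tables. In overexpression cells Tyrobp (29.4 ± 12.5 TPM), Cd53 (23.5 ± 3.56 TPM) and Fcer1g (23.2 ± 1.62 TPM, SD, n = 2 each) led and did not differ beyond their spread. The same 3 led in WT cells, at 6.62 ± 1.57 TPM for Cd53, 5.54 ± 0.624 TPM for Fcer1g and 4.78 ± 3.32 TPM for Tyrobp, again with overlapping libraries. In Ly6d-high and Ly6d-low cells Cd53 stood alone at the top, at 20.1 ± 3.27 and 12.6 ± 0.832 TPM, with Fcer1g next at 7.94 ± 1.49 and 3.47 ± 1.52 TPM. Ptprc was last in all 4 groups, and its gene model of 18313 bases is the longest of the 10.

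Cd53 therefore took a different share of pan-leukocyte mRNA from group to group. It made up 14.4% and 18.5% of the summed TPM of the 10 genes in overexpression libraries, against 21.0% and 25.5% in WT libraries, and 36.2% and 49.2% in Ly6d-high libraries, against 57.3% and 62.3% in Ly6d-low libraries. Within each comparison, its share was lower where the summed level was higher. Per Ptprc, the level of Cd53 was 11.97 and 15.5 in overexpression libraries, against 27.1 and 31.1 in WT libraries, and 218 and 130.2 in Ly6d-high libraries, against 189 and 307 in Ly6d-low libraries. Without Cd53 the other 9 genes summed to 31.4 and 23.2 TPM in Ly6d-high libraries, against 8.93 and 7.96 TPM in Ly6d-low libraries. The tables were normalized separately and these shares were not tested. Which cells made the Cd53 mRNA was not tested.

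**Figure D4:**
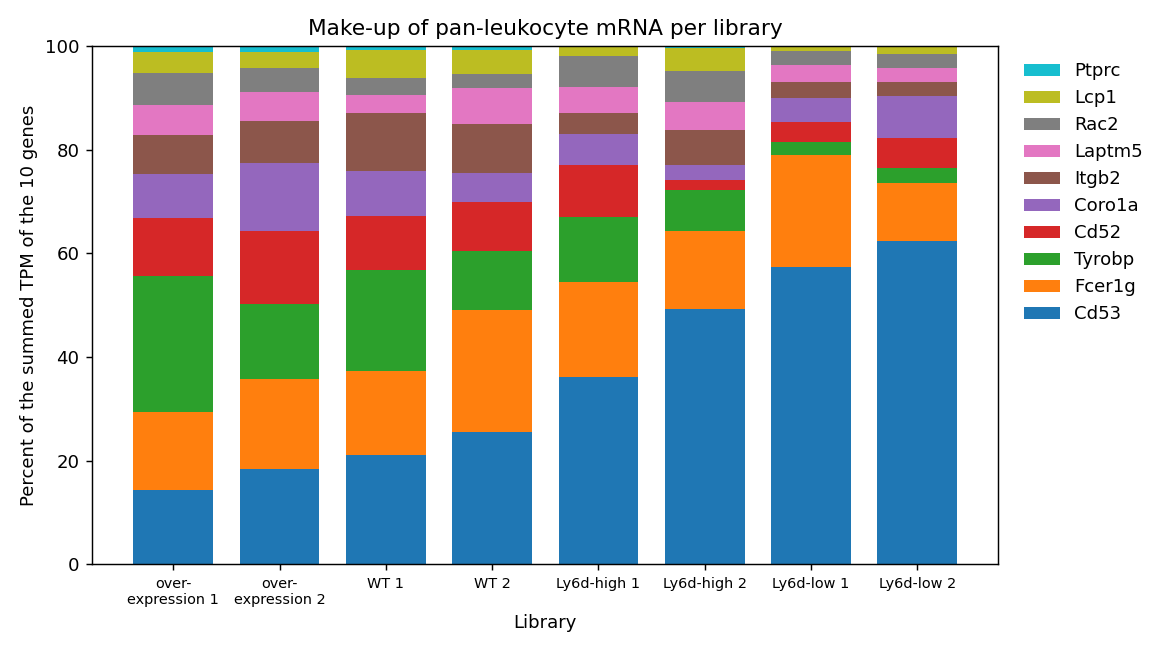
Share of each gene, in percent, in the summed TPM of the 10 pan-leukocyte genes, with a bar for each of the 8 libraries; TPM of overexpression and WT cells were computed from counts and gene length. The Cd53 segment is smallest in overexpression (14.4% and 18.5%) and largest in Ly6d-low libraries (57.3% and 62.3%), and Ptprc is the thinnest segment throughout.

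Genes of the wider machinery were compared between Ly6d-high and Ly6d-low cells in the same way, and many were too low to test. Of 30 further pan-leukocyte genes, 11 were tested, 2 were higher and 0 lower: Cd48, an adhesion ligand of lymphocytes and monocytes, and Tnfaip8l2. Cd48 was at 2.20 and 2.91 TPM in Ly6d-high libraries, against 0.278 and 0.110 TPM in Ly6d-low libraries (limma adjusted p = 0.00866). Of the adaptor partners 5 of 25 were tested and 1, Fcgr3, was higher, at 3.74 and 6.84 TPM in Ly6d-high libraries, against 0.477 and 0.980 TPM in Ly6d-low libraries (limma adjusted p = 0.0112). Of the signalling list 9 were tested and 4 were higher: Blnk, Fgr, Lck and Lyn. Blnk, an adaptor of B cell and myeloid receptors, was at 9.16 and 8.91 TPM in Ly6d-high libraries, against 2.46 and 2.64 TPM in Ly6d-low libraries (limma adjusted p = 0.00267). Of the β2 integrin list 6 were tested and 2 were higher, neither of them an α chain: Rassf5, which activates the integrin, and Icam1, its ligand on many cell types. Icam1 was at 63.1 and 86.8 TPM in Ly6d-high libraries, against 19.2 and 19.8 TPM in Ly6d-low libraries (limma adjusted p = 0.00115). Itgax and Itgad had no reads in either group, and Itgam had none in Ly6d-low libraries. Cd48, Tnfaip8l2, Fcgr3, Fgr and Rassf5 passed the filter only through the Ly6d-high libraries, so their calls are not independent of it. Of these lists, limma with no filter called only Blnk, Fgr and Icam1. On recovered reads edgeR called Cd48, Cytip, Fcgr3, Blnk, Fgr, Lyn, Vav1, Icam1 and Rassf5, while DESeq2 called Cytip, Fcgr3, Blnk, Fgr, Vav1 and Icam1. In the actin and NADPH oxidase list 0 of 9 passed by limma (unadjusted p under 0.05 in 1), and edgeR and DESeq2 on reads also called 0; Cybb was at 2.47 and 1.61 TPM in Ly6d-high libraries, against 1.11 and 1.19 TPM in Ly6d-low libraries (adjusted p = 0.217).

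Of the relatives, 3 of 20 were higher and 0 lower: Ptprf, Cd81 and Itgb6, with a list median of 0.24 against 0.25 over all genes. On recovered reads edgeR called 2 of the 20 higher (Ptprf and Itgb6) and 3 lower (Cd9, Pls1 and Rac3). Ptprf, a receptor phosphatase of epithelia, was at 16.4 and 21.4 TPM in Ly6d-high libraries, against 7.36 and 9.33 TPM in Ly6d-low libraries (1.09 on the log2(TPM + 1) scale, limma adjusted p = 0.0181). The members' median, over the 8 tested, was 1.05.

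Macrophage markers were also higher in Ly6d-high libraries, with 5 of 9 tested called, at summed levels of 212 and 203 TPM in Ly6d-high libraries, against 72.0 and 68.1 TPM in Ly6d-low libraries, where Ccr2 and Marco were at 0. The complement gene C1qa was at 17.03 and 13.9 TPM in Ly6d-high libraries, against 1.59 and 1.64 TPM in Ly6d-low libraries (limma adjusted p = 0.000265). Of 6 B and plasma cell markers tested 3 were higher, Jchain, Mzb1 and Xbp1, and the differences ranged from -0.18 to 5.78. Pax5 and Tnfrsf17 were at 0 in both groups, Ms4a1 in Ly6d-high libraries, and Mzb1 and Fcrla in Ly6d-low libraries. Jchain, which joins secreted antibody units, was at 65.8 and 55.7 TPM in Ly6d-high libraries, against 0.132 and 0.104 TPM in Ly6d-low libraries (limma adjusted p = 8.77e-06). Among 5 neutrophil markers tested, 3 were higher, Lcn2, Ltf and Ly6g, while Camp and Stfa2l1 were at 0 in both groups. S100a9 was at 4.30 and 1.73 TPM in Ly6d-high libraries, against 0.317 and 1.003 TPM in Ly6d-low libraries (limma adjusted p = 0.0826). Of 3 T cell markers tested, 1 was higher, Trbc2, and Cd3d and Cd4 were at 0 in Ly6d-low libraries, as was Cd8a in Ly6d-high libraries. Natural killer and dendritic markers gave 0 calls of 2 and 3 tested (limma, unadjusted p under 0.05 in 0; also 0 by edgeR and DESeq2 on reads), and among 3 mast cell markers limma called Cma1, which neither edgeR nor DESeq2 on reads called; edgeR called Hdc and Kit, and DESeq2 called Kit. Erythroid and endothelial markers gave 0 calls of 7 tested each (limma, unadjusted p under 0.05 in 3 each; 0 by edgeR and DESeq2 on reads), and of 10 fibroblast and mural genes Rgs5 was higher. Of 12 acinar genes limma called 8 higher, while edgeR and DESeq2 on reads called 7 higher and Cela1 lower. Of 10 tumour epithelial genes limma called Cldn4 and Cldn7 higher and Krt7, Krt8, Krt18 and Krt19 lower; both count tests added Epcam as lower, and limma with no filter called 0 lower. Jchain, Mzb1, Trbc2 and Cma1 passed the filter only through the Ly6d-high libraries, so their calls are not independent of it. With no filter limma called Jchain, Mzb1 and Xbp1, and C1qa, C1qc and Lyz2 of the macrophage list. It then called 0 T cell and 0 mast cell markers. The part of these cell types in the members' differences was not tested.

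Genes outside the lists whose pattern lay nearest to the mean pattern of the 10 members were sought over the 8 libraries, among 11485 protein-coding genes, by Euclidean distance of centred log2 levels. The nearest 6 were Srgn, Eaf2, Fcgr2b, Ctss, Arg1 and Pou2af1, at distances from 0.483 to 0.673, while the members themselves lay at 0.532 to 1.17. Srgn, the granule proteoglycan of blood cells, was at 25.4 and 28.7 CPM in overexpression libraries, against 8.73 and 8.74 CPM in WT libraries, and at 7.38 and 6.09 TPM in Ly6d-high libraries, against 4.52 and 3.69 TPM in Ly6d-low libraries. Ctss, a lysosomal protease of antigen-presenting cells, was at 34.8 and 30.1 CPM in overexpression libraries, against 11.9 and 10.7 CPM in WT libraries, and at 32.0 and 34.1 TPM in Ly6d-high libraries, against 14.5 and 12.3 TPM in Ly6d-low libraries. Arg1, the arginase of macrophages and other myeloid cells, was at 26.1 and 19.9 CPM in overexpression libraries, against 4.64 and 4.53 CPM in WT libraries. The members' mean includes groups known to differ, so nearness describes shape only.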

How the data were processed

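RNA was measured in 4 groups of 2 libraries, taken from their column names as sorted KPC1199 cells. The submitters' processing notes name the tools HISAT2, DESeq2, fastp and featureCounts and build mm9, but no versions. Gene coordinates in the tables matched GENCODE M21 of GRCm38 for 98.3% of 54409 shared genes and for all 10 members, so they are named GRCm38. The deposited table of overexpression and WT cells holds raw counts per gene. For Ly6d-high and Ly6d-low cells the authors deposited TPM, scaled over the listed gene length. That length, in bases, is the only other unit used from the deposited tables. Columns were assigned by name, and 2 count columns whose names fit no label were left aside. Overexpression libraries 1 and 2 carry these numbers only as names.

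CPM is the count scaled to a common library total. TPM of overexpression and WT cells were computed here from counts and length, and serve only to compare genes within a library. For counts the test was edgeR 4.0.16, run in R 4.3.3 (filterByExpr, TMM, quasi-likelihood test), with SE taken as the fold change over the square root of F. For TPM the test was limma (version 3.58.1, with a mean-variance trend) after the log2(TPM + 1) transform, over genes that reached 1 TPM in 2 or more libraries. This scale understates changes of low genes. The calls in lists of Ly6d-high and Ly6d-low cells share this filter. The count filter acts alike. Genes too low in WT libraries passed it through overexpression libraries, so their calls and the list medians are not independent of it. Adjusted p (Benjamini-Hochberg over all genes tested) had to lie under 0.05. TPM times length came in whole multiples of a step, and 100% of 85643 values above 0 were whole reads within 0.1. These reads went to edgeR and DESeq2 1.42.0 as alternatives. The other alternatives were DESeq2 and totals-only scaling for counts, no filter, a pseudocount of 0.1, TMM on TPM, a replicate block and leaving out each library. Both main tests were tried on simulated data with known changes. Those changes were set, with a fixed dispersion, only in genes with higher mean reads than most members had. This held for overexpression and WT libraries and for Ly6d-high and Ly6d-low libraries. Recovery of changes in genes that low was therefore not tested. The members and the 18 context lists were chosen with earlier results of these data known. Named are all members, the lists' genes by lowest p (up to 4 per list and comparison), and the 6 genes nearest in pattern. Single genes named beyond these for their role, or at 0 reads, were chosen after their values were seen. Some items withheld for evaluation are not reported here. Nothing in the labels says that libraries came from separate animals, so p-values measure the spread between these libraries, which may be technical. With 2 libraries against 2, an exact permutation test of a single gene cannot go below p = 0.333.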

Additional observations from a re-analysis of the deposited data

How the results depend on the processing

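All 10 members were called higher in overexpression than in WT cells under DESeq2, totals-only scaling and no filter. With a library left out, 9 to 10 were called, and the lost call was Fcer1g without WT replicate 1. Counts of all genes called were 656, 1187 with no filter, and 571 to 1258 with a library left out. Between Ly6d-high and Ly6d-low cells 4 members were called, against 0 with no filter, 2 with TMM factors on TPM, 2 with DESeq2 on recovered reads, and 1 to 5 with a library left out. Counts of all genes called there were 1435, 531 with no filter and 387 to 4764 with a library left out. The cause was not tested. A single reversal, of Cd52 without Ly6d-high replicate 1, gave -0.10, and with a library left out its difference ranged from -0.10 to 1.56. Rac2 and Tyrobp kept a call in 8 of 10 alternatives each, and Coro1a in 0 (limma, edgeR and DESeq2).

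With the replicate number as a block, 7 of 8 members and 4179 genes were called between Ly6d-high and Ly6d-low cells. The numbers are not shown to pair these libraries: deviations of same-numbered libraries correlated at 0.0681 across 14625 genes. No paired analysis was possible for overexpression because its columns carry no number that the labels tie to a sample, so that planned block was not run. In Ly6d-low libraries few reads limit the values of Tyrobp (2 and 3 reads) and Ptprc (7 and 6).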
